A study of Mus musculus with 4 samples.

Results

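The 10 genes described here encode abundant proteins that hepatocytes release into the blood, where most of them carry a ligand: Alb, Ahsg, Ttr, Trf, Hpx, Apoh, Ambp, Gc, Rbp4 and Afm. They were read by symbol from gene count files of 4 mouse liver libraries, and all 10 were found among the 33924 gene symbols. The set was chosen by gene name with the counts and the variability of several of these genes across the same libraries already known. All values below are therefore a description, and no test of an age effect was made on them. The libraries came from mice labelled C57BL6 (C57BL/6Rj in the study's methods), and the labels call the age classes young (3 months), adult (9 months), old (15 months) and very old (21 months). The study's methods give the mice as male, kept with free access to food and on a cycle of light and dark, and the labels name no genetic change or treatment. For each age, equal amounts of liver RNA from 24 mice (4 mice at each of 6 times of the day) were combined into 1 library. Daily rhythms are thus averaged out, the spread between mice is not visible, and there is 1 library and no replicate per age.

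Blood plasma has little room for free hydrophobic or toxic small molecules, and the liver supplies the proteins that keep them in solution. Albumin binds fatty acids, bilirubin and many drugs and holds most of the colloid osmotic pressure. The vitamin D-binding protein (Gc) and afamin (Afm) belong to the albumin family. Retinol travels on the retinol-binding protein (Rbp4), which in turn sits on transthyretin (Ttr), a carrier of thyroid hormone. Transferrin (Trf) carries ferric iron, and hemopexin (Hpx) takes up free heme. Fetuin-A (Ahsg) keeps calcium phosphate in solution. Ambp encodes a precursor that is cut into alpha-1-microglobulin, a heme-binding lipocalin like Rbp4 in fold, and bikunin, a protease inhibitor. Beta-2-glycoprotein I (Apoh) binds anionic phospholipids. In the adult liver these genes are typical hepatocyte genes, and their transcription rests on liver-enriched factors such as HNF1, HNF4 and C/EBP.

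By the study's methods, reads in these libraries began at the capped 5’-end of the RNA. The counts used here are per gene symbol, so that the start from which a counted read came could not be seen. To show what lies in front of annotated starts, the following lines give the 100 bases upstream of the RefSeq start of 5 members. Alb had the highest counts, Afm and Ahsg lay farthest from their 3 month values, and Ambp and Gc varied least. Sequences were taken from the RefSeq promoter table of GRCm38.p6 and matched to a single place each in NCBIM37, the assembly also called mm9 to which the authors mapped the reads. Capitals mark matches to any of 3 promoter motifs, on either strand, which are spelled out after the sequences.
Alb, plus strand, chr5:90889796-90889895: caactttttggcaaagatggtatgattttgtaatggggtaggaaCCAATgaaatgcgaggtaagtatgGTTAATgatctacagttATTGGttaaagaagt
Afm, plus strand, chr5:90947875-90947974: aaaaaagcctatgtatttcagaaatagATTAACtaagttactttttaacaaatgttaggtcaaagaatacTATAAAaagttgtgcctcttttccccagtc
Gc, minus strand, chr5:89886924-89887023: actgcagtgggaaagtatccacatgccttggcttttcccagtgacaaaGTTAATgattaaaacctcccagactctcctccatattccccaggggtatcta
Ambp, minus strand, chr4:62815207-62815306: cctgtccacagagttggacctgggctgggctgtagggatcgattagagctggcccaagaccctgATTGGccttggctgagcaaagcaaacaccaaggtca
Ahsg, plus strand, chr16:22891988-22892087: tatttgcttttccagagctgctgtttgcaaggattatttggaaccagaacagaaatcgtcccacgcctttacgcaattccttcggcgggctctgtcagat

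The motif GTTAAT, the core of a site for HNF1, was present on either strand in this window in all 3 members of the albumin family, that is in Alb, Afm and Gc, and in none of the other members with a sequence. It was found in 2.51% of the 32851 RefSeq promoters in a window of the same length. The TATA box TATAAA was present in Afm and upstream of the inner of the 2 RefSeq starts of Rbp4, against 5.56% of all promoters. The box CCAAT was present in Alb, Ambp and Hpx, against 18.9%. Ahsg and Apoh held none of the 3 motifs, and no match overlapped another. A match is a description of the letters, not of a bound site. The RefSeq start was compared with the nearest start of a GENCODE M1 coding transcript. It lay 19 bases upstream of that start for Alb, 27 for Ahsg and 133 for Gc, and at or within 1 base of it for Afm and Ambp. The annotated gene of Ambp begins at 62815833 on the minus strand, so that its printed window lies within the gene. That of Afm begins at 90947958, inside its printed window. No sequence is given for Trf or Ttr.

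On NCBIM37, Alb (90889915 to 90905629) and Afm (90947958 to 90982569) lie on the plus strand of chromosome 5, with Afp between them. Gc lies on the minus strand of the same chromosome (89846549 to 89886790). Ambp is on chromosome 4 (62804309 to 62815833, minus strand), Hpx on chromosome 7 (112740127 to 112748630, minus strand), Ahsg on chromosome 16 (22892115 to 22899511, plus strand) and Rbp4 on chromosome 19 (38191110 to 38199811, minus strand). These genes overlap no other annotated gene. Apoh on chromosome 11 (108204668 to 108275710, plus strand) overlaps Prkca on the other strand and the noncoding Gm11656 on the same strand. Reads shared with Prkca could be assigned to either gene if strand was not used for counting. Reads shared with Gm11656 could not be told apart by strand. The symbol Trf covers 2 annotated genes on chromosome 9, and the longer (103092538 to 103132637, minus strand) also overlaps Srprb on the same strand. All are protein-coding. Because most alignments in these libraries were not unique and were left out of the counts, the first 100 bases of the coding transcripts of the 10 genes were searched in the genome in windows of 35 bases. With up to 1 mismatch allowed, none of these windows had a second place in the genome. For Trf 48 of 371 windows and for Rbp4 28 of 132 windows matched no place at all, so that they say nothing about repeats. Whether the counted reads began in these bases could not be seen from gene counts.

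The counts on genes summed to between 525772 at 15 months and 958586 at 9 months. Depending on the library, 6.67% to 8.42% of all alignment records were on genes. Levels are given as CPM, the counts in every 1000000 counts on genes, for which 1 count was worth between 1.04 and 1.90 CPM. By the study's methods each capped transcript is read from its 5’-end, and counts were for this reason not divided by transcript length unless said. The liver origin of the libraries was seen in 5 hepatocyte genes outside the set (Cps1, Cyp2e1, Apoa1, Fgb and Asgr1), which together took 28861 to 34622 CPM. The 6 macrophage markers summed to 369 to 471 CPM and the 4 endothelial markers to 245 to 363 CPM. The 5 stellate cell markers summed to 241 CPM at 3 months and to 346 to 439 CPM at the other ages. B cell, T cell and bile duct markers were at or below 24.5 CPM, with Ms4a1 and Epcam at 0 in every library, and 5 red blood cell genes took 1376 to 2365 CPM. In RNA of a whole organ, fewer cells of a type and less RNA per cell cannot be told apart.

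Together the 10 carrier genes took 12.8% of all gene counts at 3 months (95% Wilson interval from 12.8 to 12.9), 12.2% at 9 months (12.1 to 12.3), 11.6% at 15 months (11.5 to 11.6) and 12.7% at 21 months (12.6 to 12.8). These and all later intervals cover counting error only. The share was lowest in the 15 month library. With protein-coding genes alone in the total, the shares were 15.4%, 15.5%, 14.7% and 15.5%, so that the lower value at 9 than at 3 months did not hold there. Among the genes outside the set, the small RNA U3 had 43933 counts at 9 months and 4048 to 12112 counts at the other ages. Within the set, Alb, Ahsg and Ttr accounted for 76.4% to 80.4% of the counts. Alb alone made up 42.5%, 47.7%, 48.4% and 51.3% of them in the order of age.

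**Figure D1:**
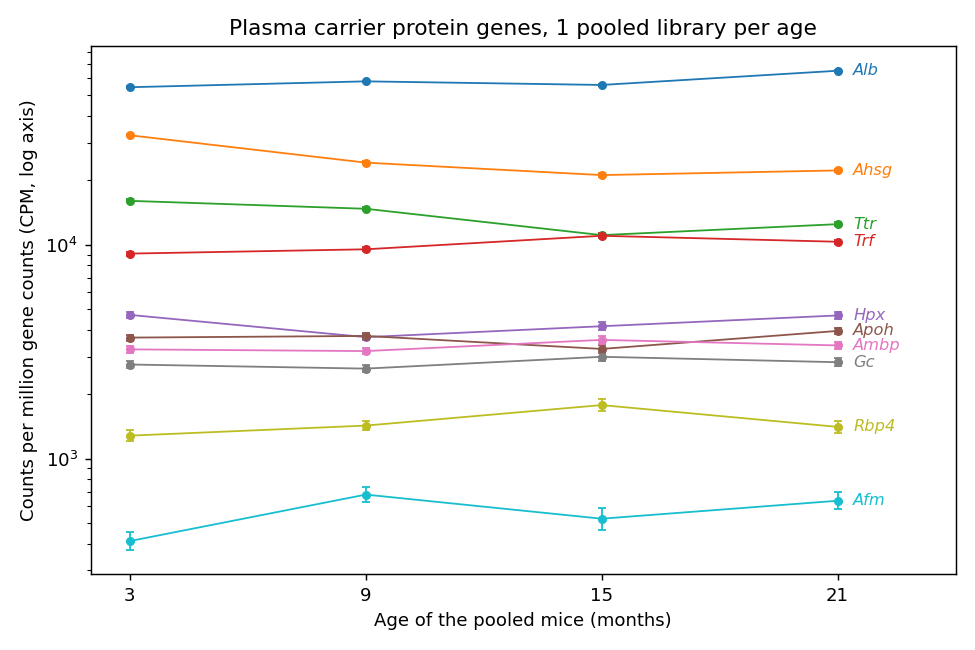
Level of each of the 10 carrier genes in CPM (log axis) against the age of the pooled mice in months, with 1 point per library and 95% Wilson intervals of the counts. Alb was the highest member in every library and Afm the lowest, Ttr met Trf at 15 months, and Ambp and Gc were each highest at 15 months.

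From the youngest to the oldest mice, Alb had 52169, 55731, 29404 and 47962 counts, or 54574, 58139, 55925 and 65169 CPM. It was the most abundant of all genes in 3 libraries and the second in the 15 month library, behind the small nucleolar RNA gene Snord13 with 32468 counts. Ahsg followed with 31088, 23220, 11136 and 16391 counts, which is 32521 CPM at 3 months and 21180 to 24223 CPM later. Its highest level was thus that of the youngest mice, and its rank among all genes went from 3 to 5. Ttr had 16049, 14735, 11096 and 12483 CPM. Trf had 9093, 9523, 11016 and 10329 CPM. In the 15 month library Ttr (5834 counts) and Trf (5792 counts) did not differ beyond counting error, with a ratio of 1.01 (exact 95% interval from 0.971 to 1.04), whereas Ttr was 1.77-fold above Trf at 3 months (from 1.72 to 1.81).

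The middle of the order was held by 4 genes of similar level. Hpx had 4698, 3697, 4158 and 4670 CPM and Apoh 3679, 3745, 3256 and 3953 CPM. Ambp had 3241, 3182, 3589 and 3382 CPM and Gc 2753, 2634, 2992 and 2822 CPM. Hpx and Apoh did not differ beyond counting error at 9 months (3544 and 3590 counts, ratio 1.01, from 0.967 to 1.06). Of the 4 libraries, Apoh was below Ambp in that of 15 months alone, with 1712 against 1887 counts (ratio 1.10, from 1.03 to 1.18). Rbp4 (1279 to 1778 CPM) and Afm (411 to 678 CPM) closed the order in every library. Of the 9 pairs of neighbours in the 3 month order, 7 kept their order in all libraries. Divided by the length of the longest coding transcript, Trf (3028 bases) moved down to rank 6 at 3 months with 3003 CPM per kilobase, behind Hpx with 3179 and Apoh with 3092, and the first 3 and the last 3 genes stayed as they were.

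For comparisons between ages, the count of a gene was divided by the geometric mean of all 8704 genes with a count in every library, as in the centered log-ratio (clr) of the study. The study took a narrower set of 5’-ends without small noncoding RNAs, whereas the genes used here include these and have no further filter. A gene was counted as changed in level when the ratio of these scaled counts went past 1.5-fold. All comparisons with 3 months share the 3 month library. The median ratio of the carrier genes was 1.03 at 9 months, 0.965 at 15 months and 1.03 at 21 months. Over the 4295 genes with at least 20 counts in at least 1 library and none at 0, the medians were 0.973, 0.892 and 0.955. The centre of all genes at 15 months was thus shifted by -0.16 on the log2 scale, and every 15 month ratio below has to be read against this shift.

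At 9 months 1 of the 10 genes was more than 1.5-fold higher than at 3 months and none was lower. Of the 4295 genes, 17.4% were past this limit upwards and 20.1% downwards. Among the 493 genes with a mean of at least 200 CPM, which are still less abundant than most carrier genes (median of the mean clr 3.27 against 5.42) and have a larger counting error, the percentages were 7.51% and 6.69%. At 15 months 2 carrier genes were lower and none was higher, against 26.8% lower and 14.1% higher among the 4295 genes and 14.6% and 5.68% among the 493 genes. At 21 months 1 carrier gene was higher and none was lower, against 15.5% higher and 22.7% lower, and 4.06% and 7.91% in the more abundant genes. Read against this background, 1 or 2 genes in 10 is not a result about the carrier genes as a set. With library totals in place of the geometric mean, the higher genes among all genes past the limit at 15 months went from 34.4% to 46.4% in the 4295 genes, and from 28.0% to 42.4% in the 493 genes.

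**Figure D2:**
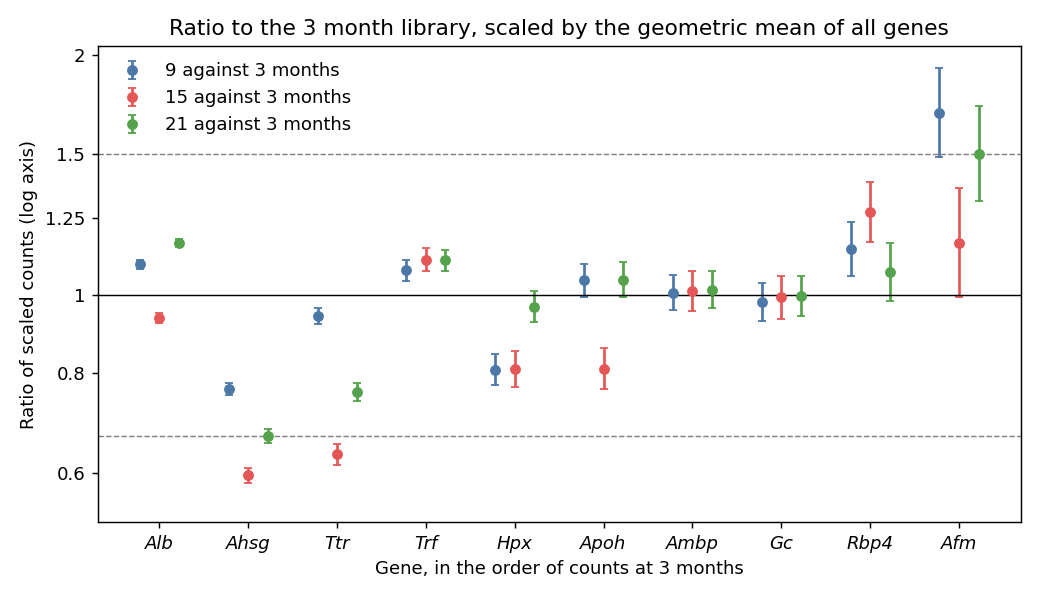
Ratio of the scaled counts of each carrier gene to the 3 month library (log axis) at 9, 15 and 21 months, with exact 95% intervals of the 2 counts. Dashed lines mark 1.5-fold in either direction. Ahsg and Ttr lay below the lower line at 15 months, Afm above the upper line at 9 months and just above it at 21 months, and Ambp and Gc stayed near 1.

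The members that moved past the limit were the mineral carrier Ahsg, the thyroid hormone carrier Ttr and the vitamin E-binding Afm. For Ahsg the ratio to 3 months was 0.764 at 9 months (exact 95% interval from 0.751 to 0.777), 0.596 at 15 months (from 0.583 to 0.609) and 0.667 at 21 months (from 0.654 to 0.679), the last just short of the limit. All 3 later libraries were below the 3 month library, and leaving out the 3 month library lowered the variance of clr of Ahsg from 0.0499 to 0.0168. Relative to the median of the 4295 genes, the 15 month ratio was 0.668, just short of the limit. From 9 to 15 months its ratio was 0.78 (from 0.762 to 0.798). Against the 493 abundant genes, 8.92% had a lower ratio than Ahsg at 15 months and 7.91% at 21 months.

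Ttr is found on chromosome 18 (NCBIM37, 20823751 to 20832825, plus strand), where the noncoding Gm16090 overlaps it on the other strand, so that reads in the shared part could likewise belong to either gene if strand was not used. Its ratio to 3 months was 0.941 at 9 months (from 0.92 to 0.963), 0.632 at 15 months (from 0.613 to 0.652) and 0.757 at 21 months (from 0.738 to 0.777). The 15 month library was thus lower than the 9 month library (ratio 0.671, from 0.651 to 0.692, and 0.753 scaled by library totals). The 21 month library was again higher than the 15 month library (1.20, from 1.16 to 1.24). Scaled by library totals, the 15 month ratio of Ttr was 0.691 and no longer past the limit, whereas that of Ahsg was 0.651. Relative to the median of the 4295 genes it was 0.709. The 15 month library was also the one with the fewest gene counts, and the part of depth in these ratios was not tested.

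Afm had 393, 650, 275 and 467 counts in the order of age. The ratio to 3 months was 1.69 at 9 months (from 1.49 to 1.92) and 1.16 at 15 months (from 0.994 to 1.36). At 21 months it was just past the limit, with 0.59 on the log2 scale and an interval of the ratio from 1.31 to 1.72. The 3 month library was the lowest and the course over age was not monotonic. Alb, of the same family, differed less, with ratios of 1.09 (from 1.08 to 1.11), 0.937 (from 0.924 to 0.951) and 1.16 (from 1.15 to 1.18). For Alb the direction at 15 months turned with the scaling, to 1.02 with library totals, and it was 1.05 relative to the median of the 4295 genes. Rbp4 was higher at 9 months (1.14, from 1.06 to 1.24) and 15 months (1.27, from 1.17 to 1.39), and at 21 months its interval held 1 (1.07, from 0.984 to 1.16). Trf was 1.07-fold to 1.11-fold above its 3 month level at the later ages, with no interval that held 1. Relative to the same median, the 15 month ratios were 1.42 for Rbp4, 1.30 for Afm and 1.24 for Trf.

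Hpx and Apoh were both lower at 15 months, each with a ratio of 0.809. Hpx was already lower at 9 months (0.807, from 0.772 to 0.844) and was near its starting level at 21 months (0.968, from 0.925 to 1.01). Apoh was near its starting level at 9 months (1.04, from 0.996 to 1.09) and at 21 months (1.05, from 0.995 to 1.10). Relative to the median of the 493 abundant genes, the 15 month ratios of both genes were 0.922, so that most of their distance from 1 was shared with other genes.

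**Figure D3:**
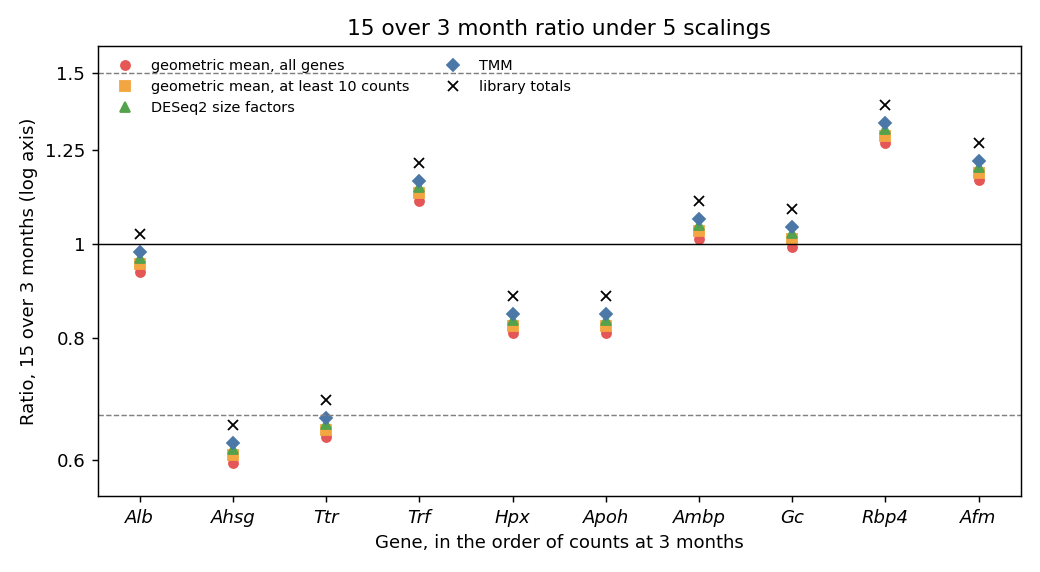
Ratio of each carrier gene at 15 over 3 months (log axis) with 5 ways to scale the libraries. The scalings shift all genes by the same factor, Ahsg stayed below the lower dashed line (1.5-fold) with each of them, and Ttr crossed it only with library totals.

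For the variance of clr over the 4 ages, the carrier genes had a median of 0.0118, against 0.16 for all 8704 genes and 0.0249 for the 493 abundant genes. Ambp (4.82e-05) and Gc (7.34e-05) had the lowest variances of all genes, a value with which they were chosen. Counting noise alone, averaged from 1 over each count, would give 0.000396 for Ambp and 0.000473 for Gc. Their counts were therefore closer to each other than repeated counting of the same RNA would give on average, and they are the extremes of 8704 genes. The ratios of both genes to 3 months lay between 0.981 and 1.02 with the geometric mean, but reached 1.11 and 1.09 at 15 months with library totals. Trf (0.0023), Alb (0.00905), Rbp4 (0.0104), Hpx (0.0131) and Apoh (0.0149) followed. Ttr (0.0442), Ahsg (0.0499) and Afm (0.057) had the highest values of the set, and 70.8% to 77.9% of the abundant genes varied less than these. The variance was 394 times the counting noise for Alb, 424 times for Ttr and 883 times for Ahsg, but 23.1 times for the less abundant Afm. Single libraries weighed on several of these values. Without the 15 month library the variance went to 0.000737 for Apoh, 0.0227 for Ttr, 0.00509 for Rbp4 and 0.00553 for Alb. Without the 3 month library it went to 0.000162 for Trf and 0.0168 for Ahsg, but to 0.0229 for Apoh, and without the 9 month library to 0.0761 for Ahsg. Over the 4 choices of a library to leave out, it lay between 1.13e-05 and 6.40e-05 for Ambp and between 2.79e-05 and 9.11e-05 for Gc.

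**Figure D4:**
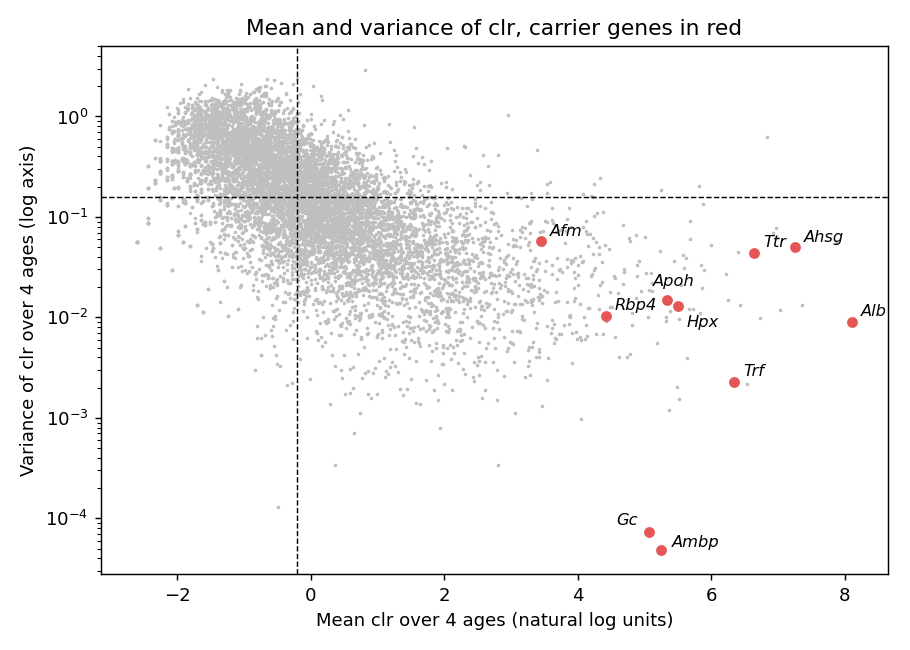
Variance of clr over the 4 ages (log axis) against mean clr (natural log units) for 8704 genes in grey and the 10 carrier genes in red, with dashed lines at the medians of all genes (0.16 and -0.21). All carrier genes lay in the lower right, with Ambp and Gc at the bottom of the plot.

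Ratios of counts within a library do not depend on the scaling. For the partners of the retinol complex, Ttr was below and Rbp4 above its 3 month level at each later age, although the interval of Rbp4 at 21 months held 1. There were 12.5 Ttr counts for each Rbp4 count at 3 months (exact 95% interval from 11.8 to 13.3), 10.3 at 9 months (from 9.77 to 10.9), 6.24 at 15 months (from 5.82 to 6.69) and 8.88 at 21 months (from 8.32 to 9.47). The highest value was 2.01 times the lowest, and no intervals overlapped. The ratio of Alb to Ttr was 3.40, 3.95, 5.04 and 5.22 in the order of age. The intervals at 15 months (from 4.90 to 5.18) and 21 months (from 5.11 to 5.34) overlapped. An overlap of 2 intervals, here and below, is not a test of their difference. In the albumin family there were 133, 85.7, 107 and 103 Alb counts for each Afm count, and the interval at 3 months (from 120.2 to 147) overlapped that at 15 months (from 94.9 to 120.8) but not the others. The ratio of Alb to Gc stayed between 18.7 and 23.1.

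The heme scavenger Hpx was set against haptoglobin (Hp), the scavenger of free hemoglobin. Their ratio was 1.77 at 3 months (from 1.68 to 1.86), 1.57 at 9 months, 1.11 at 15 months (from 1.05 to 1.18) and 1.55 at 21 months. For Hp, 45.5% of the 35-base windows at the 5’-end matched a second place in the genome, so that its counts are uncertain. For each count of the fetuin-B gene Fetub there were 46.5 Ahsg counts at 3 months (from 43.1 to 50.3), 44.0 at 9 months (from 40.3 to 48.0), 29.9 at 15 months (from 27.0 to 33.3) and 34.6 at 21 months (from 31.6 to 38.0). The intervals at 15 and 21 months lay below those at 3 and 9 months. Bikunin from Ambp is linked to the heavy chains encoded by Itih1 to Itih3, whereas the related Itih4 protein does not carry it. The ratio of Ambp to the sum of all 4 Itih genes was 0.553, 0.564, 0.497 and 0.466 in the order of age. With Itih1 to Itih3 alone, a sum chosen after seeing the data, it was 0.702, 0.696, 0.647 and 0.583. The transferrin receptor gene Tfrc had only 7, 15, 12 and 16 counts, and at this depth its ratio to Trf is known with wide intervals (from 602 to 3089 at 3 months).

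**Figure D5:**
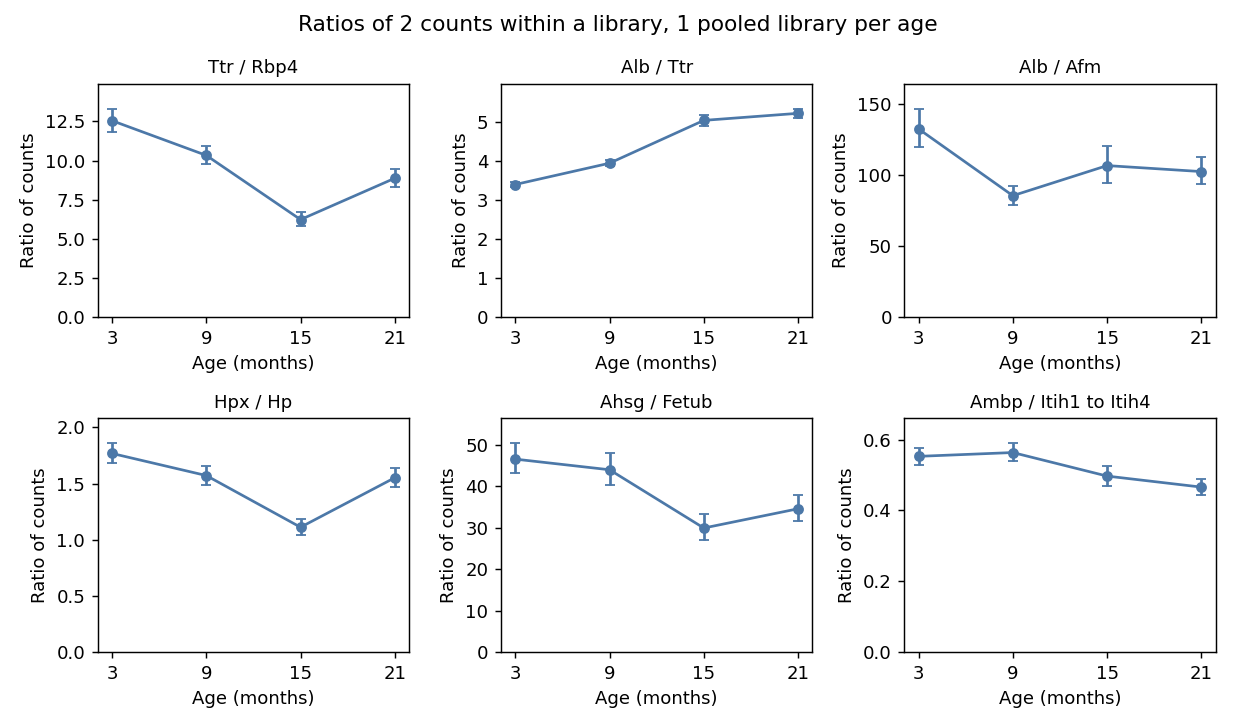
Ratio of the counts of 2 genes (in the last panel, of Ambp to the sum of Itih1 to Itih4) in the same library against age in months, with exact 95% intervals and each axis from 0. Ttr over Rbp4, Hpx over Hp and Ahsg over Fetub were lowest in the 15 month library, and Alb over Ttr was higher at 15 and 21 months than at 3 and 9 months.

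Among the 45 pairs of carrier genes, the SD of the log2 ratio over the 4 libraries had a median of 0.26. It was lowest for Ambp and Gc (0.016) and then for Trf and Ambp (0.060), and highest for Ahsg and Afm (0.56), whose ratio changed 2.25-fold. Over the 493 abundant genes, the genes most like Alb in their course were Fah (1300, 1358, 726 and 1210 counts, SD 0.021), Igfbp4 (SD 0.026) and Apoc1 (SD 0.03). Closest to Ttr were Fads1 (386, 347, 147 and 232 counts, SD 0.019), Acaa2 (SD 0.037) and Dad1 (SD 0.042). Closest to Ambp were Gc (SD 0.016), H6pd (SD 0.025) and Cfi (SD 0.037). These likenesses rest on 4 libraries and on the best of many genes.

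Of 22 further genes of plasma transport and binding, 19 had at least 20 counts in 1 library. At 9 months none of these was more than 1.5-fold higher and 1 was lower, against 17.4% and 20.1% of the 4295 genes. At 15 months 2 were higher and none was lower, against 14.1% and 26.8%, and at 21 months 1 was higher and 2 were lower, against 15.5% and 22.7%. Among the 493 genes of at least 200 CPM, 7.51% were higher and 6.69% lower at 9 months. The shares there were 5.68% and 14.6% at 15 months, and 4.06% and 7.91% at 21 months. Counts differed widely within the list, neither background was matched to them, and these numbers are not a result about the list. The median ratios of the 19 genes were 0.984, 0.946 and 1.09, beside 0.973, 0.892 and 0.955 for all genes. The genes past the limit were the acid glycoprotein Orm2 (39, 46, 61 and 47 counts, 2.60-fold at 15 months, from 1.71 to 3.99), the IGF binding proteins Igfbp2 (1.66 at 15 months, from 1.23 to 2.25) and Igfbp1 (0.486 at 21 months, from 0.344 to 0.679), the IGF complex subunit Igfals (0.596 at 21 months, from 0.429 to 0.821) and the phospholipid transfer protein Pltp (0.4 at 9 months, from 0.163 to 0.898). Orm2 also stood at 1.52 at 21 months, with an interval that held 1 (from 0.975 to 2.39). The fetal albumin relative Afp had 0, 1, 3 and 2 counts, and Shbg was listed at 0 in every library.

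Of 22 genes for partners, receptors and secretory folding of the carriers, 21 were in the files and 15 had at least 20 counts in 1 library. At 9 months 3 were more than 1.5-fold higher and none was lower, against 17.4% and 20.1% of the 4295 genes. At 15 months 2 were higher and 2 lower (14.1% and 26.8% of all genes), and at 21 months 1 was higher and 5 were lower (15.5% and 22.7%). The median ratios were 0.89, 0.849 and 0.819, beside 0.973, 0.892 and 0.955 for all genes. In all, 8 partner genes were past the limit at any age, and 5 to 7 with the other scalings. The share of all genes past it at any age was not computed, so that this number is not a result about the partner genes. The numbers at single ages were not set against genes of like abundance and are not such a result either. The lower genes were the ferritin subunits Ftl1 (0.451 at 15 months and 0.538 at 21 months) and Fth1 (0.658 at 21 months), the asialoglycoprotein receptor subunit Asgr1 (0.663 at 15 months), the chaperones Calr (0.66 at 21 months) and Pdia4 (0.528 at 21 months, from 0.352 to 0.779) and the hemoglobin receptor Cd163 (0.575 at 21 months, from 0.243 to 1.26). For Ftl1, 33.3% of the windows at the 5’-end matched a second place in the genome. Among the higher genes, which had few counts, were the retinol esterifying Lrat (18, 31, 26 and 23 counts, 2.40 at 15 months, from 1.27 to 4.65) and, at 9 months, Cd163 (1.53, from 0.868 to 2.76). Lrat stood at 1.76 at 9 months and at 1.62 at 21 months, each with an interval that held 1. Lrat is also one of the 5 stellate cell markers, whose sum was lowest at 3 months, and the part of that cell type in these ratios was not tested.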

How the data were processed

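The deposited files hold raw counts of reads per gene symbol, without normalisation. The authors removed uncapped RNA, ligated linkers to the 5’-ends, sequenced the 4 libraries on the same SOLiD lane and used the CLC Genomic workbench to map the 35 bp reads to mm9. The submitters' processing notes name HTSeq, without a version. Reads with more than 1 alignment (72.2% to 76.7% of the records) and other records without a gene were left out here.

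The members and lists were chosen with earlier results of these data known. Counts were divided by the geometric mean of the 8704 genes with a count in every library. A change was counted past 1.5-fold among genes with at least 20 counts in 1 library, of which 20 with a count of 0 elsewhere were left out. With 1 library per age and genes chosen on these counts, no age effect was tested. Intervals are 95% Wilson intervals for shares and exact Clopper-Pearson intervals for ratios of 2 counts. The variance of clr has a divisor of 3. The fold and interval calculations were tested on simulated data.

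Named were the 10 carrier genes, genes of the lists past 1.5-fold or in a functional pair, and the 3 genes most like Alb, Ttr and Ambp. U3, Snord13, Hrg, Afp and Shbg were named after their values were seen. The values of 1 gene of the partner list are not reported here. Alternatives were TMM (edgeR 4.0.16), DESeq2 1.42.0 size factors, library totals, a geometric mean over genes with at least 10 counts, a lower and a higher fold, other filters, leaving out each age, other totals and counts per kilobase. Python 3.11.15, numpy 2.4.6, pandas 2.3.3, scipy 1.17.1, matplotlib 3.10.9 and R 4.3.3 were used. Positions are from GENCODE M1 (NCBIM37) and promoters from RefSeq (GRCm38.p6).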

Additional observations from a re-analysis of the deposited data

How the results depend on the processing

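The median ratio of the carrier genes at 15 over 3 months, 0.965, became 1.01 with TMM and 1.06 with library totals, a change of direction within a few percent, and that at 9 months went from 1.03 to 0.9999 with library totals. The number of carrier genes past 1.5-fold was the same with TMM, DESeq2 size factors and the geometric mean over genes with at least 10 counts. With library totals it went from 2 to 1 at 15 months. At a lower limit of 0.32 on the log2 scale it was 2 at 9 months, 3 at 15 months and 3 at 21 months, and at a fold of 2 it was 0 at each age. The numbers over all genes at these limits are given below. No share among genes of like abundance was computed at them, so that they give no result about the carrier genes. With the 9 month library as the reference, a choice made after seeing the data, the number of carrier genes past 1.5-fold was 0 at 15 and 0 at 21 months. The share of all genes was not computed for this reference, so that these numbers are not a result about the carrier genes. Of the genes called, Ttr at 15 over 9 months was 0.671, just short of the limit, and Ahsg was 0.78. Of the 4295 genes with at least 20 counts in 1 library, 1610, 1755 and 1641 were past 1.5-fold at 9, 15 and 21 months. The numbers of these 4295 genes were 2620, 2746 and 2588 at the lower limit, and 710, 858 and 771 at a fold of 2. Past 1.5-fold were 4271, 4707 and 4431 of the 8704 genes without the filter of 20 counts, and 70, 100 and 59 of the 493 genes of at least 200 CPM. Leaving out an age gave a median variance of clr between 0.00531 (without 15 months) and 0.0145 (without 21 months), against 0.0118 for all ages. The share of gene counts on the carrier genes was 15.9%, 15.8%, 14.7% and 16.1% at 3, 9, 15 and 21 months without the 10 most abundant other genes, and 15.4%, 15.5%, 14.7% and 15.5% among protein-coding genes. The number of partner genes past 1.5-fold at any age went from 8 to 5 with DESeq2 size factors and to 6 with TMM. It was 6 with library totals and 7 with the geometric mean over genes with at least 10 counts. No share of all genes past the limit at any age was computed. Of the 78 alternatives, 32 were labelled as moved and 46 as unchanged. The limits of these labels are not given here, and some values listed above, such as 6 and 7 partner genes, are among the 46. The carrier gene ratios past 1.5-fold (Ahsg and Ttr at 15 months, Afm at 9 and 21 months) kept their direction with every scaling. Among the other carrier gene ratios to 3 months, the direction turned with at least 1 scaling for Alb at 15 months and Ambp at 9 months. It also turned for Gc at 9, 15 and 21 months. The labels of the alternatives did not mark reversals, and for genes outside the set the direction was not compared between scalings. No paired analysis was possible because each age has 1 library.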

Other observations

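Ahsg lies on chromosome 16 (NCBIM37, plus strand), ahead of the related cystatin superfamily genes Fetub (22918455 to 22939839) and Hrg (22951145 to 22961729). Hrg, the histidine-rich glycoprotein that binds heme and metal ions, had 2429, 3052, 1366 and 2089 counts at 3, 9, 15 and 21 months. Its ratio to 3 months was 1.28 at 9 months (exact 95% interval from 1.22 to 1.36), 0.935 at 15 months (from 0.874 to 0.999) and 1.09 at 21 months (from 1.03 to 1.15). Fetub had ratios of 0.808, 0.926 and 0.897. At 15 months the ratio of Ahsg, 0.596, was thus lower than those of Fetub and Hrg.

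Of the heavy chain genes named beside Ambp, Itih1 (290, 297, 183 and 269 counts) had ratios to 3 months of 1.05, 1.05 and 1.17, and all 3 intervals held 1. Itih2, the most abundant of them (3818, 3673, 2523 and 3672 counts), had ratios of 0.984, 1.10 and 1.22, and Itih3 (302, 414, 209 and 328 counts) had ratios of 1.40, 1.15 and 1.37. Itih4 was 0.88 at 9 months and 1.23 at 15 months. None went past 1.5-fold. Hrg was named after its values were seen.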
